A study of Homo sapiens with 12 samples.

Results

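The genes described here are 10 transcription factors that cells can switch on within minutes to hours of a stimulus. They are the FOS family members FOS, FOSB, FOSL1 and FOSL2, the JUN family members JUN, JUNB and JUND, the small MAF factor MAFF, the zinc finger factor EGR1, and MYC. They were chosen by name and found by symbol through their Ensembl IDs, 10 of the 60675 genes in the deposited table and of the 30808 genes with a count. All 10 had counts in all 12 libraries. RNA was sequenced from SW1783 cells, an established human astrocytoma line, after 24 h of treatment. Vehicle cells received PBS with 2% DMSO. The other groups received an aqueous extract of Aconitum carmichaeli Debeaux (ACD), labelled ACDW, at 20, 100 or 500 µg/mL (low, medium or high dose). The paper states that this extract was also dissolved in PBS with 2% DMSO. The 2% is that of the solution added to the wells, not of the culture medium. Each of the 4 groups had 3 libraries. All groups came from the same cell line, with no genetic change named. The protocol text given with the samples describes treatment with another herb, Poria cocos, so the name of the extract rests on the sample titles and treatment labels.

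FOS and JUN proteins are basic leucine zipper (bZIP) factors that pair with each other to form AP-1, a dimer that binds DNA at the AP-1 site and, less tightly, at the related cyclic AMP response element (CRE). The FOS proteins cannot pair among themselves and depend on a JUN partner, whereas JUN proteins can also form dimers with each other. FOSL1 and FOSL2, the FOS-related antigens, lack the strong activation domain of FOS and FOSB. Small MAF proteins such as MAFF have no activation domain and partner with NRF2-type and BACH factors. EGR1 is a zinc finger activator of GC-rich sites, and MYC pairs with MAX at E-boxes. Several of these genes are the classic immediate early genes, whose mRNA rises briefly after growth factors, cytokines or stress through MAP kinases and the serum response factor SRF.

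Promoter windows show where exact matches to such sites lie close to the members' own start sites. RefSeq windows from 250 bases before to 50 bases after a start site (GRCh38.p14) were found for 8 of the 10 genes, all but FOSL1 and MYC, and MAFF had windows for 2 starts. Each window was searched on both strands for the AP-1 site TGANTCA, the CRE TGACGTCA, the E-box CACGTG, the EGR site GCGNGGGCG and the CArG box, the site of SRF. No position matched more than 1 of these motifs. The 4 windows below, cut at 30 bases after the start, are those of genes that rose (JUND, MAFF), one that fell by adjusted p (FOSL2) and one that did not pass the test (EGR1), and they hold matches, which are in capitals. Of the 2 MAFF windows the one with a CRE is shown.
JUND, minus strand, chr19:18281593-18281872: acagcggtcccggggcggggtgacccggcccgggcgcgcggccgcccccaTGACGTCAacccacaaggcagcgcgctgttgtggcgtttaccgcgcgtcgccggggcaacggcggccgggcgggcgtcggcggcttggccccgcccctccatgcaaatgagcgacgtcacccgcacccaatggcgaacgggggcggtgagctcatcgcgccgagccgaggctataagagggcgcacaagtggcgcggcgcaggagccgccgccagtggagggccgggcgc
MAFF, plus strand, chr22:38201744-38202023: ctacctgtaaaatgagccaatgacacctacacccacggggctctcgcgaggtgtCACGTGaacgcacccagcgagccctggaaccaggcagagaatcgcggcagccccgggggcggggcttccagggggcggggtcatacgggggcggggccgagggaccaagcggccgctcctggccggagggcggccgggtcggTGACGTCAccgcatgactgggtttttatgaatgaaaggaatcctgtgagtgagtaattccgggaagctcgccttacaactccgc
FOSL2, plus strand, chr2:28392608-28392887: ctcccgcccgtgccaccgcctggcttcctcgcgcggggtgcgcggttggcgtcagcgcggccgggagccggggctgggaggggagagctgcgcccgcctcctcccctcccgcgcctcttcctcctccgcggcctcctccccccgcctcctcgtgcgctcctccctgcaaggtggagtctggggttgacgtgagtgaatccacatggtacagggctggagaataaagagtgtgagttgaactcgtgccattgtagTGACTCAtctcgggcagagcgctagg
EGR1, plus strand, chr5:138465229-138465508: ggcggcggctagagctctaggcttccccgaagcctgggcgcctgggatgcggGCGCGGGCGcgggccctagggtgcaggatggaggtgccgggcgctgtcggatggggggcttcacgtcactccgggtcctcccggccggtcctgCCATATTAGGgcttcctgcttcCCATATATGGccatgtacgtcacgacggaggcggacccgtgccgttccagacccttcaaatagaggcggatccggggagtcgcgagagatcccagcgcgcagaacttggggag

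Counting from the start site, the JUND window held a CRE at -200 to -193. The MAFF window held a CRE at -54 to -47 and an E-box at -196 to -191. The window of the other MAFF start held an E-box at -81 to -76. FOSL2 held an AP-1 site just downstream of its start, at +5 to +11. EGR1 held an EGR site at -198 to -190 and CArG boxes at -105 to -96 and -83 to -74. These exact letters were in none of the windows of FOS, FOSB, JUN and JUNB. Variants of the sites, and sites outside the windows, were not searched, so these genes may still have such sites. Among all 35116 RefSeq windows of this length, the AP-1 site was in 7.71%, the CRE in 1.85%, the E-box in 7.26%, the EGR site in 9.43% and the CArG box in 1.29%. A match describes the sequence and is not evidence that a factor was bound.

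At 500 µg/mL, 4 of the 10 genes rose and 1 fell. MAFF rose 4.14-fold, MYC 3.04-fold, JUND 2.59-fold and FOSL1 1.81-fold, and FOS fell to 0.441 of its vehicle level. A gene was called a differentially expressed gene (DEG) when its DESeq2 adjusted p was under 0.05 and its fold change over 1.5 in either direction. By that rule 8.66% of all 19453 tested genes were higher at 500 µg/mL and 9.57% were lower. With size factors from total counts the split over all genes moved from 1684 higher and 1862 lower to 1293 higher and 2494 lower, and at 100 µg/mL from 329 higher and 208 lower to 241 higher and 440 lower. By adjusted p alone, JUN also rose, and FOSL2 and JUNB also fell, so that 8 of the 10 differed from vehicle, against 46.5% of all tested genes. That share includes genes down to a mean of 1.72 normalised counts, while the lowest mean of a member was 26.8. Among genes kept by a filter on low counts, 9371 of 15978 passed the adjusted p at this dose. The other shares of all genes by adjusted p given below were not matched for level either. The medium dose raised 2 of the 10, MYC and MAFF, against 2.34% of 14082 tested genes higher and 1.48% lower. By adjusted p alone the medium dose changed 6 of the 10, against 29.5% of all genes. At 20 µg/mL 0 of the 10 were DEGs, both in DESeq2 and in the edgeR quasi-likelihood test, against 0.118% of 9304 genes in either direction in DESeq2 and 0.188% of 15983 in edgeR. The edgeR test called 6 of the 10 at 500 µg/mL, against 24.4% of all genes, and 3 at 100 µg/mL, against 5.06%. Testing in DESeq2 for a change larger than 1.5-fold called 4 of the 10 at 500 µg/mL, against 8.17% of all genes, and 0 at 100 µg/mL, against 0.668%. FOS and FOSB had no adjusted p at 20 µg/mL, since their means lay under the 263 normalised counts needed there. Unadjusted p was under 0.05 for 3 members at 20 µg/mL, namely MYC, MAFF and EGR1. In a likelihood ratio test among the 4 groups, 8 of the 10 differed, against 45.8% of all genes, and FOSB (DESeq2 adjusted p 0.279) and EGR1 (DESeq2 adjusted p 0.0931) did not pass. Under alternative settings this count ran from 8 to 10, and over fits that leave out a library from 8 to 9. Nothing in the labels says that the libraries of a group came from separate cultures, so p-values measure the spread between these samples, which may be technical.

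**Figure D1:**
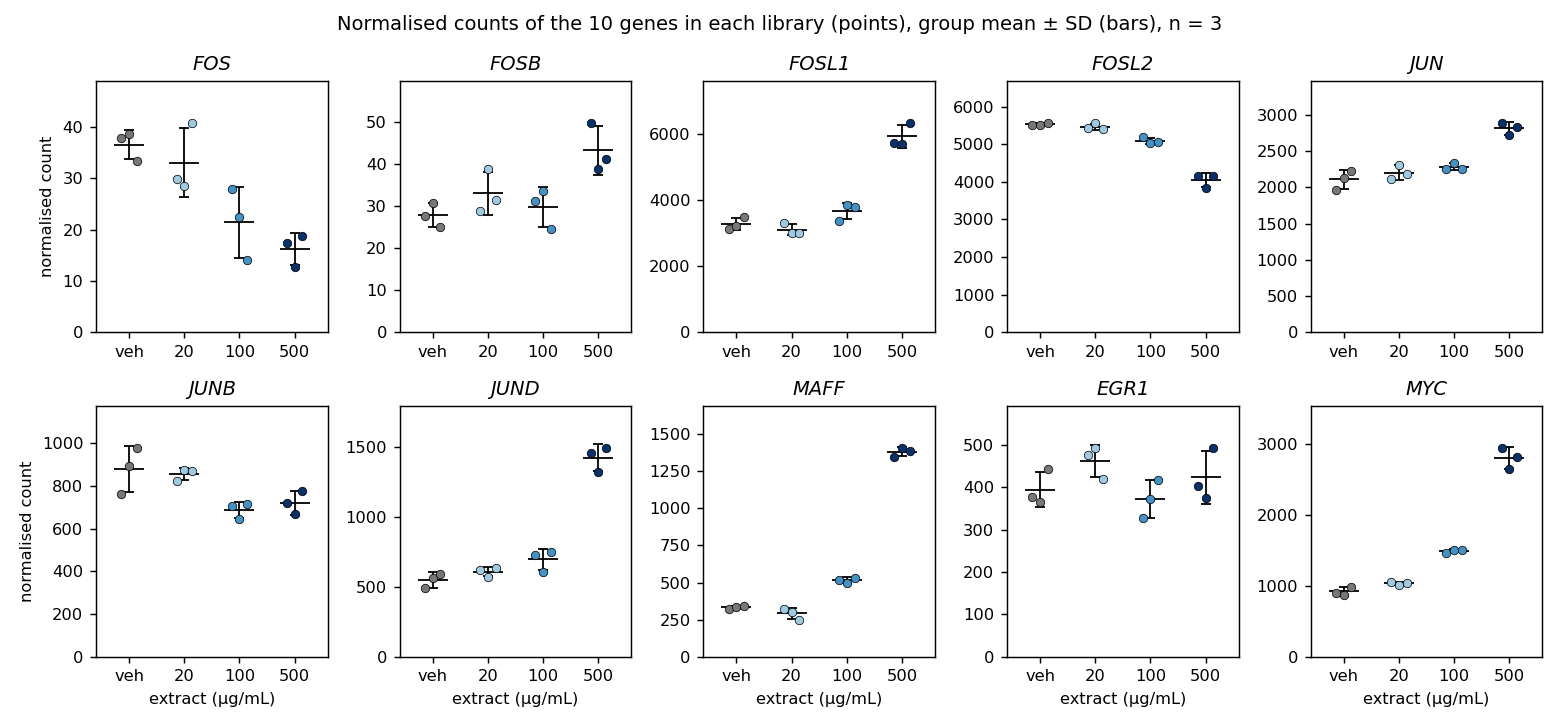
Normalised counts (vertical axes, linear from 0) of each of the 10 genes against the dose of extract in µg/mL (veh, vehicle), with a point for each library, a wide bar for the group mean and whiskers for the SD (n = 3). MAFF, MYC, JUND and FOSL1 stand highest at 500 µg/mL with no overlap with the other groups, and EGR1 and JUNB overlap between vehicle and high dose. The share of all genes that separate in this way was not counted.

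Among the FOS family, FOS and FOSB had few counts and FOSL1 and FOSL2 carried nearly all of the family's counts. Counts were divided by DESeq2 size factors to give normalised counts, printed below for the 3 libraries of each group. Wherever groups are said below not to overlap, the share of all genes doing so was not counted. Groups of 3 libraries separate easily. FOS (ENSG00000170345, chromosome 14, 75278826 to 75282230, GRCh38), the founding member of the family, stood at 37.9, 38.5 and 33.3 normalised counts with vehicle. Its libraries read 29.8, 28.6 and 40.8 at 20 µg/mL, 27.8, 22.4 and 14.1 at 100 µg/mL, and 17.4, 12.6 and 18.7 at 500 µg/mL. All high dose libraries, and all medium dose libraries, lay below all vehicle libraries, while medium and high dose overlapped. FOS fell from 36.6 ± 2.86 to 16.2 ± 3.20 (SD, n = 3) at 500 µg/mL, a log2 fold change of -1.18 (SE 0.368, BH-adjusted p 0.00366 in DESeq2). Before normalisation its counts lay between 14 and 44, so each value carries a large counting error, and when DESeq2 tested for a change larger than 1.5-fold its adjusted p was 0.822, with a range of 0.000467 to 0.822 over the alternatives. At 100 µg/mL the log2 fold change of FOS was -0.79 (SE 0.354, BH-adjusted p 0.0792 in DESeq2), and it passed with the edgeR quasi-likelihood test (adjusted p 0.0170, with 0.0170 to 1.0 over the alternatives). FOS also passed at that dose with total-count size factors.

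FOSB (ENSG00000125740, chromosome 19, 45467995 to 45475179), which forms AP-1 dimers much as FOS does, had values of the same order. It stood at 27.7, 30.7 and 25.0 normalised counts with vehicle, 28.9, 38.8 and 31.4 at 20 µg/mL, 31.3, 33.6 and 24.5 at 100 µg/mL, and 49.8, 38.7 and 41.2 at 500 µg/mL. The high dose libraries were all above the vehicle libraries, opposite to FOS. The log2 fold change of 0.63 (SE 0.305) did not pass in DESeq2 (adjusted p 0.0801) and did in the edgeR quasi-likelihood test (adjusted p 0.0103, with 0.0103 to 1.0 over the alternatives).

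FOSL1 (ENSG00000175592, chromosome 11, 65892049 to 65900573), or FRA1, is a FOS-related factor often abundant in mesenchymal and tumour cells. It stood at 3130.5, 3211 and 3482 normalised counts with vehicle and at 3289.5, 3004 and 3002 at 20 µg/mL. The medium dose libraries read 3375, 3848 and 3778, and the high dose libraries 5735, 5706 and 6332. The low and medium dose libraries overlapped the vehicle, and the high dose libraries were all above every other library. FOSL1 rose from 3275 ± 184 to 5925 ± 353 at 500 µg/mL (log2 fold change 0.86 with an SE of 0.0539, BH-adjusted p 2.55e-55 in DESeq2). At 100 µg/mL it differed by 0.16 on the log2 scale (SE 0.0546, BH-adjusted p 0.0117 in DESeq2), under the fold threshold. That adjusted p rose to 0.0894 without vehicle replicate 1, 0.0605 without vehicle replicate 2, 0.135 without medium replicate 2 and 0.0753 without medium replicate 3.

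FOSL2 (ENSG00000075426, chromosome 2, 28392448 to 28417317), or FRA2, moved the opposite way. Its libraries read 5499, 5520 and 5566 with vehicle, 5426, 5551 and 5409.8 at 20 µg/mL, 5181, 5034 and 5061 at 100 µg/mL, and 4143, 3837 and 4148 at 500 µg/mL. Replicates lay close together, with an SD of 34.3 on a vehicle mean of 5528. The 3 medium dose libraries lay below all vehicle and low dose libraries, and the 3 high dose libraries below the medium dose. The log2 fold changes were -0.12 at 100 µg/mL (SE 0.0325, BH-adjusted p 0.00163 in DESeq2) and -0.45 at 500 µg/mL (SE 0.0330, BH-adjusted p 1.91e-41 in DESeq2). Both passed the adjusted p and neither the fold threshold.

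The JUN family split likewise, with JUND rising most, JUN rising less and JUNB falling slightly. JUN (ENSG00000177606, chromosome 1, 58776845 to 58784048), the main activating partner of FOS proteins, stood at 1970.5, 2125 and 2233 normalised counts with vehicle. It read 2114, 2312 and 2188 at 20 µg/mL, 2260.3, 2343 and 2257 at 100 µg/mL, and 2892, 2719 and 2836 at 500 µg/mL. The medium dose libraries lay just above the vehicle libraries, and the high dose libraries stood apart from all others. JUN rose at 500 µg/mL by adjusted p, from 2109.8 ± 132 to 2816 ± 88.2, with a log2 fold change of 0.42 (SE 0.0485, BH-adjusted p 9.25e-17 in DESeq2), under the fold threshold.

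JUNB (ENSG00000171223, chromosome 19, 12791486 to 12793315), a weaker activator that can dampen JUN, read 762, 893 and 979 normalised counts with vehicle. It read 821, 874 and 867 at 20 µg/mL, 704, 643 and 716 at 100 µg/mL, and 718, 667 and 777 at 500 µg/mL. The medium dose lay below vehicle in all libraries, and the high dose overlapped the lowest vehicle library. By adjusted p JUNB fell at 100 µg/mL (log2 fold change -0.35 with an SE of 0.0854, BH-adjusted p 0.000278 in DESeq2) and at 500 µg/mL (-0.29 with an SE of 0.0850, BH-adjusted p 0.00224 in DESeq2), in both cases under the fold threshold. Without vehicle replicate 3 the difference at 500 µg/mL was -0.20 (DESeq2 adjusted p 0.0511). It shares 14.2% of its exon bases with HOOK2 on the opposite strand, and since it is not stated whether counting used the strand, part of its count is uncertain.

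JUND (ENSG00000130522, chromosome 19, 18279694 to 18281622), the JUN member usually expressed steadily in resting cells, changed most in the family. Like JUNB it has a single exon. It read 489, 566 and 595 normalised counts with vehicle, 618, 572 and 636 at 20 µg/mL, 730.2, 609 and 751 at 100 µg/mL, and 1459, 1319 and 1496 at 500 µg/mL. The high dose libraries were all above every other library, and low and medium dose libraries overlapped. JUND rose from 550 ± 55.0 to 1425 ± 93.5 at 500 µg/mL (log2 fold change 1.37 with an SE of 0.0862, BH-adjusted p 1.37e-55 in DESeq2). At 100 µg/mL its log2 fold change was 0.34 (SE 0.0892, BH-adjusted p 0.000993 in DESeq2).

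MAFF (ENSG00000185022, chromosome 22, 38200767 to 38216507) rose most of the 10. It read 322, 337 and 343 normalised counts with vehicle, 325, 304 and 250.1 at 20 µg/mL, 519, 494 and 532 at 100 µg/mL, and 1348, 1409 and 1388 at 500 µg/mL. The medium dose libraries lay above all vehicle and low dose libraries, and the high dose libraries above all others. From 334 ± 11.2 with vehicle it rose to 515 ± 19.6 at 100 µg/mL (log2 fold change 0.62 with an SE of 0.0863, BH-adjusted p 1.33e-11 in DESeq2) and to 1382 ± 31.3 at 500 µg/mL (2.05 with an SE of 0.0812, BH-adjusted p 2.53e-138 in DESeq2). The medium dose fold change of 1.54 lay just over the threshold and fell under it with total-count size factors. At 20 µg/mL MAFF had a log2 fold change of -0.19 (SE 0.0921, BH-adjusted p 0.330 in DESeq2, unadjusted 0.0423). MAFF shares 5.81% of its exon bases with PLA2G6 on the opposite strand.

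EGR1 (ENSG00000120738, chromosome 5, 138465479 to 138469303) did not pass the test at any dose against vehicle. It read 377, 364 and 442 normalised counts with vehicle, 476, 493 and 421 at 20 µg/mL, 327, 372 and 416 at 100 µg/mL, and 403, 374 and 494 at 500 µg/mL. Each dose overlapped the vehicle. The log2 fold changes were 0.23 at 20 µg/mL (SE 0.117, BH-adjusted p 0.344 in DESeq2), -0.08 at 100 µg/mL (SE 0.119, BH-adjusted p 0.667 in DESeq2) and 0.10 at 500 µg/mL (SE 0.118, BH-adjusted p 0.513 in DESeq2). The sign at 500 µg/mL turned with total-count size factors, to -0.0091, and without high dose replicate 3, to -0.02.

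MYC (ENSG00000136997, chromosome 8, 127735434 to 127742951), a regulator of growth and metabolism genes, was the member whose libraries separated at every dose. It read 901, 875 and 988 normalised counts with vehicle, 1049, 1011 and 1037 at 20 µg/mL, 1465, 1506 and 1506 at 100 µg/mL, and 2945, 2638 and 2807 at 500 µg/mL. No group overlapped another. The share of all genes whose groups separate in this way was not counted, and 3 libraries against 3 separate easily. MYC rose from 921 ± 58.9 to 1492 ± 23.5 at 100 µg/mL (log2 fold change 0.70 with an SE of 0.0576, BH-adjusted p 6.56e-32 in DESeq2) and to 2797 ± 154 at 500 µg/mL (1.60 with an SE of 0.0556, BH-adjusted p 1.46e-180 in DESeq2). At 20 µg/mL its log2 fold change was 0.17 (SE 0.0594), which did not pass over all genes (DESeq2 adjusted p 0.102, unadjusted 0.00507). CASC11 on the opposite strand covers 3.18% of its exon bases.

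**Figure D2:**
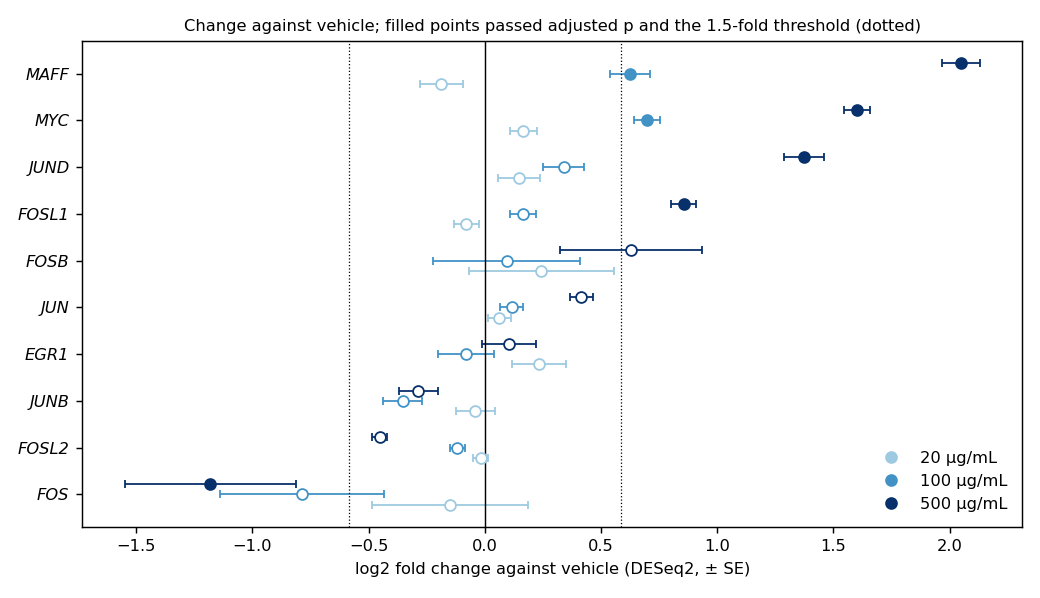
Log2 fold change against vehicle (horizontal axis, DESeq2) for each of the 10 genes at 20, 100 and 500 µg/mL, with whiskers for the SE and dotted lines at the 1.5-fold threshold. Filled points passed the adjusted p and the threshold: MAFF, MYC, JUND, FOSL1 and FOS at 500 µg/mL, and MAFF and MYC at 100 µg/mL.

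The steps between doses show where along the series each gene moved. From the low to the medium dose, 1 of the 10 was a DEG, MAFF (log2 fold change 0.81 with an SE of 0.0884, BH-adjusted p 3.30e-18 in DESeq2), against 1.35% of all genes higher. MYC rose over this step by adjusted p, with a log2 fold change of 0.53 (DESeq2 adjusted p 8.47e-19), and FOSL1 by 0.24 (DESeq2 adjusted p 0.000133). JUNB, EGR1 and FOSL2 fell over it by adjusted p, with log2 fold changes of -0.31, -0.31 and -0.10. Together 6 of the 10 passed the adjusted p over this step, against 18.9% of all genes, and 0 passed a test for a change larger than 1.5-fold, against 0.463%. EGR1 no longer passed without medium replicate 1 (DESeq2 adjusted p 0.244) or 2 (0.114) or low replicate 1 (0.121) or 2 (0.184). FOSL2 no longer passed without medium replicate 2 (DESeq2 adjusted p 0.0925) or 3 (0.0720) or low replicate 2 (0.1003). From the medium to the high dose 4 of the 10 were higher, against 4.58% of all genes, and 0 were lower, against 5.61%. MAFF rose by 1.42 on the log2 scale (SE 0.0770, BH-adjusted p 1.99e-74 in DESeq2). JUND rose by 1.03 (SE 0.0849, BH-adjusted p 1.35e-32 in DESeq2), more than its whole difference between vehicle and medium dose. MYC rose by 0.90 (SE 0.0531, BH-adjusted p 4.46e-63 in DESeq2) and FOSL1 by 0.69 (SE 0.0537, BH-adjusted p 2.76e-36 in DESeq2). JUNB differed by 0.07 over the same step (DESeq2 adjusted p 0.581). The steps share libraries with the comparisons against vehicle.

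Levels of different genes were compared as normalised counts per kilobase of exon. With vehicle the order was FOSL1, FOSL2, JUN, JUNB, JUND, MYC, EGR1, MAFF, FOS and FOSB, and no neighbours in it overlapped between libraries. FOSL1 stood at 1735 ± 97.7 per kilobase and FOSL2 at 772 ± 4.79, against 11.5 ± 0.899 for FOS and 5.00 ± 0.512 for FOSB. At 500 µg/mL the order was FOSL1, JUN, JUND, FOSL2, MYC, JUNB, MAFF, EGR1, FOSB and FOS. FOSL1 reached 3140 ± 187 per kilobase, JUN stood at 777 ± 24.3 and JUND at 739 ± 48.5, and only JUN and JUND overlapped among neighbours. At 100 µg/mL JUNB overlapped JUND, and FOS overlapped FOSB. FOSL2 moved from the second place to the fourth, JUND from the fifth to the third and JUNB from the fourth to the sixth. These places hold for the union of annotated exons as length. With the longest transcript the vehicle order was the same, and at 500 µg/mL the order was FOSL1, JUN, MYC, JUND, FOSL2, MAFF, JUNB, EGR1, FOSB and FOS, with MYC at 752 per kilobase in place of 458.

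The make-up of the AP-1 subunit transcripts followed from these levels. Summed per kilobase, the 7 FOS and JUN genes rose from 3871 ± 220 with vehicle to 5626 ± 284 at 500 µg/mL. FOSL1 made up 44.8% ± 0.650 of that sum with vehicle, 43.1% ± 1.74 at 20 µg/mL, 48.1% ± 2.24 at 100 µg/mL and 55.8% ± 1.14 at 500 µg/mL. JUND went from 7.36% ± 0.371 to 13.1% ± 0.412 between vehicle and high dose. FOSL2 went from 20.0% ± 1.01 to 10.0% ± 0.307 and JUNB from 12.4% ± 0.869 to 6.99% ± 0.191. JUN had a slightly smaller share at 500 µg/mL, 13.8% ± 0.570 against 15.0% ± 0.168 with vehicle, although its own level rose. FOS and FOSB together stayed under 1% of the sum. The ranges of vehicle and high dose libraries did not overlap for FOSL1, FOSL2, JUN, JUNB, JUND and FOS. Within the JUN family the share of JUND went from 21.2% to 38.7%, and within the FOS family that of FOSL1 from 68.7% to 84.5%. The ratio of the JUN to the FOS sum was 0.533 ± 0.0317 with vehicle and 0.514 ± 0.0190 at 500 µg/mL, a difference smaller than the spread of the vehicle libraries. These shares are of mRNA, describe levels already tested gene by gene, and were not tested again. With 3 libraries against 3, an exact permutation test cannot go below p = 0.10.

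**Figure D3:**
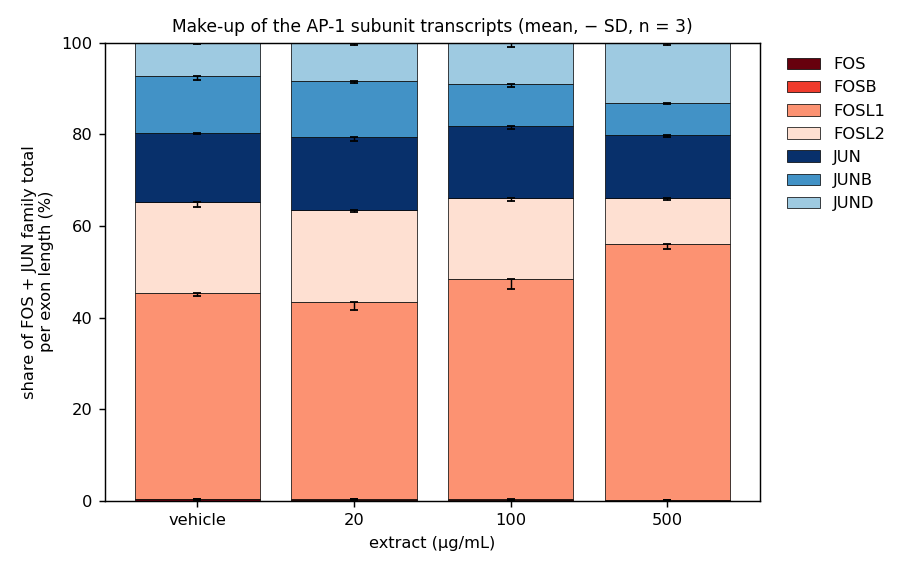
Share of each FOS and JUN gene in their sum per exon length (vertical axis, %) with vehicle and at 20, 100 and 500 µg/mL, as stacked bars of group means with a downward whisker of 1 SD (n = 3). The FOSL1 segment grows to 55.8% and that of JUND to 13.1% at 500 µg/mL, while those of FOSL2 and JUNB shrink.

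Other bZIP factors of the AP-1, ATF and MAF groups include the partners the members dimerise with. Of 16 such genes, 5 rose and 1 fell at 500 µg/mL. For this list and those below, 8.66% of all tested genes rose and 9.57% fell at that dose. The median log2 fold change of the 10 with a mean of at least 10 normalised counts was 0.60, against 0.00 over 15282 genes with that mean. MAFG, another small MAF protein, rose from 1264 ± 69.0 to 3366 ± 23.6 (in log2 1.42, BH-adjusted p 7.68e-197 in DESeq2). JDP2, a repressor that pairs with JUN, rose from 121 ± 8.18 to 294 ± 24.8 (1.29, DESeq2 adjusted p 6.93e-21) and had already risen at 100 µg/mL (1.33). The other genes that rose were BACH1, a repressor that partners with small MAF proteins, and ATF2 and NFE2L1. At 100 µg/mL JDP2 was the 1 gene of the list to rise, and 1 gene fell. With total-count size factors 3 in place of 5 of these genes rose at 500 µg/mL.

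Among 6 EGR relatives and NAB corepressors, 0 rose and 1 fell at 500 µg/mL, and 3 had a mean under 10 normalised counts. EGR3 fell from 149 ± 10.9 to 63.5 ± 11.4 (log2 fold change -1.24, BH-adjusted p 7.43e-11 in DESeq2). Among 17 MYC partners and antagonists, 6 rose and 1 fell at 500 µg/mL, with a median log2 fold change of 0.38 over 15 genes. MXD1, which competes with MYC for MAX, rose from 200 ± 13.8 to 746 ± 34.2 normalised counts (1.90, DESeq2 adjusted p 2.03e-79), and was the 1 gene of this list to rise at 100 µg/mL (0.74). PIM1, a kinase that cooperates with MYC, rose from 212 ± 17.4 to 649.6 ± 19.7 (1.61, DESeq2 adjusted p 2.73e-59). MXD4, another MAX-binding antagonist, fell from 638 ± 16.4 to 338 ± 5.41 (-0.92, DESeq2 adjusted p 1.33e-22). The other MYC antagonists MXI1 and MNT, and MYCL and MLXIPL, also rose.

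A list of 11 genes held SRF, its cofactors and ternary complex factors, and also ETS1, ETS2, CREB1, CREM and ATF1. Of these 11, 2 rose and 1 fell at 500 µg/mL, with a median log2 fold change of 0.25. All 11 passed the adjusted p alone, against 46.5% of all tested genes, many of them of lower level. ETS2, an ETS factor, rose from 1383 ± 47.8 to 3304 ± 85.9 normalised counts (1.26, DESeq2 adjusted p 2.74e-173). ELK4, a ternary complex factor, rose from 1466 ± 34.7 to 2503 ± 50.3 (0.77, DESeq2 adjusted p 3.73e-61). MRTFA, the actin-sensing SRF cofactor, fell from 1582 ± 16.0 to 822 ± 31.4 (-0.95, DESeq2 adjusted p 1.63e-66). Of 22 JNK, p38 and ERK pathway kinases, 1 rose and 0 fell, with a median of 0.07, and 0 were DEGs at 100 µg/mL. The riser was RPS6KA5, the kinase MSK1 downstream of p38 and ERK, from 170 ± 21.3 to 358 ± 18.4 normalised counts (1.08, DESeq2 adjusted p 1.15e-17). These are transcript levels, and kinase activity was not measured.

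Genes known as targets of the factors were listed from general knowledge. Whether the factors caused any change in them was not tested. Over all tested genes, 8.66% rose and 9.57% fell at 500 µg/mL, and 2.34% rose and 1.48% fell at 100 µg/mL. Of 22 AP-1 targets, 9 rose and 1 fell at 500 µg/mL, with a median log2 fold change of 0.48 over 21 genes, and 3 rose at 100 µg/mL. CXCL8, the neutrophil chemokine interleukin 8, rose from 101 ± 8.52 to 2168 ± 133 (in log2 4.42 with an SE of 0.113, and a DESeq2 adjusted p below what the software can write). IL6, an inflammatory cytokine, rose from 79.2 ± 8.42 to 887 ± 51.0 (3.48 with an SE of 0.150, BH-adjusted p 7.97e-118 in DESeq2). IL11, another cytokine of the IL6 family, fell from 1620.0 ± 79.4 to 837 ± 56.6 (-0.96 with an SE of 0.0726, BH-adjusted p 2.67e-38 in DESeq2). Of 12 EGR1 targets, 3 rose and 1 fell at 500 µg/mL, and 4 rose at 100 µg/mL. GADD45B, 1 of those 4 (log2 fold change 0.61), fell under the fold threshold without vehicle replicate 2 (0.51) or medium replicate 1 (0.57). GADD45A, a stress and growth arrest gene that many other factors also control, rose from 753 ± 50.4 to 3954 ± 101 (2.39), and GADD45B from 220 ± 29.4 to 453 ± 15.0 (1.04, DESeq2 adjusted p 5.87e-21). THBS1, the matrix protein thrombospondin 1, fell by 1.94 on the log2 scale (SE 0.0379). Of 26 MYC targets, 1 rose and 1 fell at 500 µg/mL, with a median of 0.05 over 25 genes. LDHA, lactate dehydrogenase A, fell by 0.98 (SE 0.0251), and TERT, at 28.1 ± 7.43 normalised counts with vehicle and 46.4 ± 7.57 at 500 µg/mL, rose (log2 fold change 0.73 with an SE of 0.307, BH-adjusted p 0.0393 in DESeq2) but did not pass with total-count size factors. None of these lists had a DEG at 20 µg/mL in DESeq2.

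**Figure D4:**
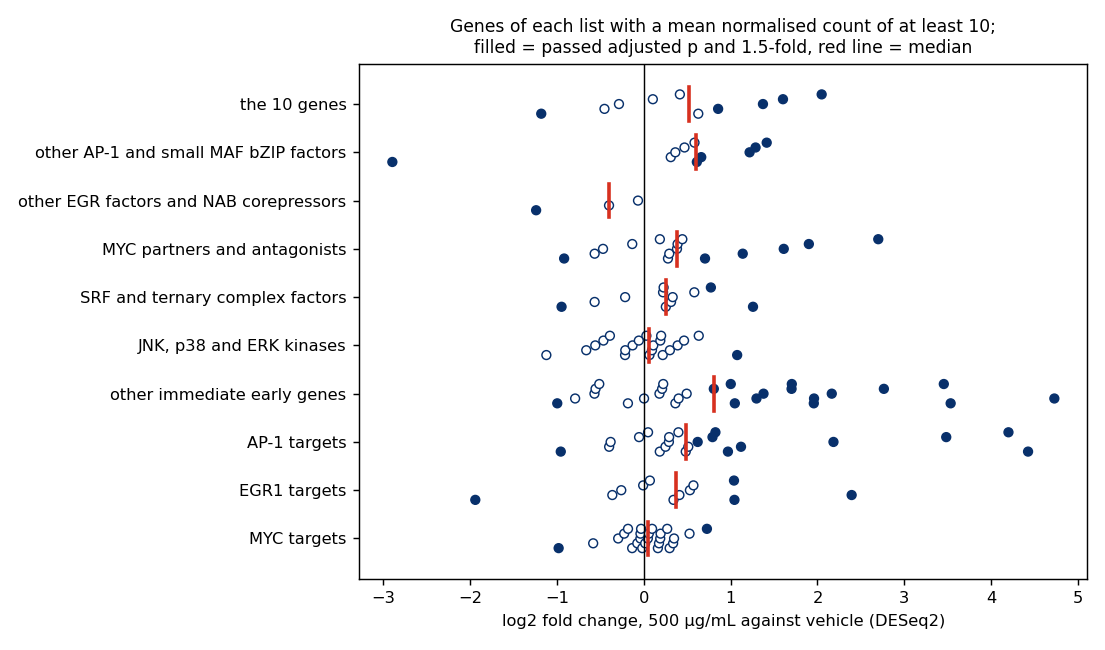
Log2 fold change at 500 µg/mL against vehicle (horizontal axis, DESeq2) for the genes of each list with a mean of at least 10 normalised counts, filled where the adjusted p and the 1.5-fold threshold were passed, with a red line at the list's median. The medians run from below 0 for the other EGR factors to 0.81 for other immediate early genes, and the MYC targets lie around 0.05.

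Genes with the profile nearest to each changed member were searched among 11256 genes with a mean of at least 100 normalised counts. The measure was the root mean square difference over the 12 libraries in log2 normalised count relative to vehicle. This is a description of likeness. The nearest to MYC was ICAM1, with a difference of 0.0535, followed by CCPG1 (0.0885) and SYT7 (0.0918). ICAM1, an adhesion molecule, rose by 0.73 at 100 µg/mL and 1.68 at 500 µg/mL on the log2 scale, where MYC rose by 0.70 and 1.60, and it shares 25.4% of its exon bases with antisense genes. MAFF lay nearest to TBX2 (0.151), LIF (0.153) and PHLDA1 (0.163). JUND lay nearest to ETS2 (0.105), DEDD2 (0.109) and WBP2 (0.109), and FOSL1 to SLC25A28 (0.0625), SMOX (0.0646) and MEF2D (0.0734). FOS, with its low counts, had no neighbour as close among the genes searched, the nearest being PCDHGC4 at 0.218, TYMS at 0.220 and PIK3R3 at 0.229. The mean of FOS was 26.8 normalised counts, so genes of its own level were outside the search. TYMS is overlapped by antisense genes over 47.9% of its exon bases.

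Total counts per library lay between 18863852 and 24200565. The share of counts in mitochondrial ribosomal RNA was 0.913% to 0.960% with vehicle, 3.01% to 3.33% at 20 µg/mL, 7.67% to 8.05% at 100 µg/mL and 5.76% to 6.06% at 500 µg/mL, and its part in the results was tested only by leaving mitochondrially encoded genes out, which changed no member's call. Of 14 astrocyte and glioma markers, 6 never passed 10 counts in any library, namely GFAP, S100B, AQP4, SLC1A2, ALDH1L1 and SOX2. The other 8, SLC1A3 among them, had a mean of at least 10 normalised counts. Of that list 0 rose and 3 fell at 500 µg/mL, SLC1A3 (log2 fold change -2.45), NES (-1.72) and PDGFRA (-1.40), and the same 3 fell at 100 µg/mL. The summed normalised counts of that list, which abundant genes dominate, lay between 179185 and 187914 with vehicle and between 188168 and 191138 at 500 µg/mL. The 7 endothelial and fibroblast markers summed to between 113700 and 118426 with vehicle, 102916 and 112085 at 20 µg/mL, 81228 and 88431 at 100 µg/mL and 28557 and 30919 at 500 µg/mL, with CDH5 and VWF never over 10 counts and 4 of 7 lower at 500 µg/mL. The 7 epithelial markers went from between 4861 and 5073 to between 1797 and 1888, with 2 lower and EPCAM, CDH1, KRT20, CDX2 and VIL1 never over 10 counts. The lower ones were KRT18 and KRT8, and KRT8 (log2 fold change -0.59) fell under the fold threshold without vehicle replicate 1 (-0.58), high replicate 1 (-0.55) or high replicate 2 (-0.56). The 7 microglia and leukocyte markers went from between 3153 and 3320 to between 3949 and 4232, with AIF1, CX3CR1, CD14 and ITGAM never over 10 counts. Of these, 0 rose and 2 fell, PTPRC (log2 fold change -1.71) and CSF1R (-1.14), while CD68, which holds most of the sum, had a log2 fold change of 0.47, under the fold threshold. The 7 neuron markers went from between 1352 and 1411 to between 1029 and 1103, and the 6 oligodendrocyte markers from between 138 and 174 to between 282 and 291. All libraries came from the same cell line, so the lists name marker genes and not cell types known to be present. The part of these shifts in the members' results was not tested. In bulk RNA, fewer cells expressing a gene and less of its RNA per cell cannot be told apart.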

How the data were processed

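SW1783 RNA was measured in 12 libraries, 3 per group. Per the labels and methods, the authors made directional mRNA libraries, and their processing notes name FastQC 0.11.9, Trim Galore 0.6.5, STAR 2.7.3a and RSEM 1.3.3 with GRCh38. The deposited values are RSEM expected counts per gene, which split reads that fit several genes, and 8.75% of them were not whole. Whether RSEM used the strand is not given in the sources used here. Here expected counts were rounded to integers and no filter was applied before the fit.

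Symbols and coordinates (1-based) came from GENCODE release 44, which held 93.2% of the gene IDs, and promoter windows from RefSeq. Groups came from the sample titles and treatment labels. The Wald and likelihood ratio tests of DESeq2 1.42.0 (R 4.3.3, two-sided, all 12 libraries, group as the term) were adjusted over all genes by Benjamini-Hochberg, with independent filtering tuned to 0.05. A DEG had an adjusted p under 0.05 and a fold change over 1.5. The script was tested on simulated data before use. Lengths were the union of annotated exons.

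Total counts of 18863852 to 24200565 gave a median SE of 0.07 in log2 at 500 µg/mL for genes with a mean of at least 100 normalised counts. Replicate pairs differed by more than counting noise, with chi-square values of 1.99 to 3.55 per degree of freedom. Same-numbered low and medium dose libraries deviated together from their group means (r = 0.158, 0.124 and 0.193), a pairing seen in the data and not stated in the labels, and a fit with the number as a block was an alternative. The members and gene lists were chosen with earlier results of these data known. All 10 members were named. From each list, up to 2 called genes each way with the largest change at 500 µg/mL and a mean of at least 100 normalised counts were named, and for each called member the 3 genes with the nearest profile (pseudocount 1). Other names in the text were chosen after their values were seen. Alternatives included edgeR 4.0.16, other size factors, filters and thresholds, and leaving out each library. Other cell lines and treatments of the study were not analysed here. Some of the genes that met the naming rule are not reported here.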

Additional observations from a re-analysis of the deposited data

How the results depend on the processing

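The counts of members called held within 1.5 times under every alternative other than the fold rules. The genes behind a count could change. With total-count size factors FOS was called at 100 µg/mL and MAFF was not. By adjusted p alone, 8 members differed at 500 µg/mL, 6 at 100 µg/mL and 6 between the low and medium doses. Testing in DESeq2 for a change larger than 1.5-fold called 0 members at 100 µg/mL and 0 between the low and medium doses. The edgeR quasi-likelihood test called 6 members at 500 µg/mL and 3 at 100 µg/mL. Leaving out each library in turn left 5 members at 500 µg/mL, 2 at 100 µg/mL, 0 at 20 µg/mL, 4 between medium and high and 1 between low and medium. Of 1050 fold changes of members under alternatives, 1034 kept their direction and their side of the threshold. Signs turned for small changes. With total-count size factors, which shifted the median of all genes by -0.11 at 500 µg/mL, the log2 fold change of FOSB at 100 µg/mL was -0.017, that of EGR1 at 500 µg/mL -0.0091, that of JUN between low and medium doses -0.021 and that of IER5L at 100 µg/mL -0.10. FOSB at 100 µg/mL ran from -0.0051 without medium replicate 2 to 0.22 over the fits that leave out a library. JUNB at 20 µg/mL ran from -0.13 without vehicle replicate 1 to 0.043 without vehicle replicate 3. EGR1 ran from -0.17 without medium replicate 3 to 0.0072 without vehicle replicate 3 at 100 µg/mL, and from -0.022 without high replicate 3 to 0.19 without vehicle replicate 3 at 500 µg/mL. IER5L at 100 µg/mL ran from -0.12 without vehicle replicate 1 to 0.13 without vehicle replicate 3, and was -0.01 without medium replicate 1. The cause was not tested. Over all groups, 5 of 18 same-numbered pairs of libraries had correlated deviations over 0.1 (r between -0.118 and 0.221), and 8 of 12 libraries lay closest to their own number. Only between the low and the medium dose were all 3 pairs over 0.1. High replicate 3 also deviated together with medium replicate 3 (r = 0.221) and low replicate 3 (r = 0.135). With the replicate number as a block, the counts were 5, 2, 0, 4 and 1 as before, and between low and medium doses no member's call changed, by adjusted p alone either. At 100 µg/mL FOSL1 had a DESeq2 adjusted p of 0.105 with the block. With the longest transcript as length, FOSL1 made up 46.0% of the AP-1 sum with vehicle and 57.1% at 500 µg/mL, JUN 15.5% with vehicle, JUNB 11.4% and 6.45%, and JUND 6.80% and 12.1%. Of 360 counts for gene lists, 17 moved. With total-count size factors, 3 kinases, 4 immediate early genes, 2 MYC partners or antagonists, 2 SRF group genes and 2 MYC targets were lower at 500 µg/mL, against 0, 1, 1, 1 and 1, 0 MYC targets rose at either dose, against 1 at each, and at 100 µg/mL 2 EGR1 targets rose, against 4, and 1 EGR relative and 1 MYC partner or antagonist fell, against 0. With edgeR, 2 MYC partners in place of 1 rose at 100 µg/mL, 2 kinases and 2 immediate early genes fell at 500 µg/mL against 0 and 1, and 1 immediate early gene rose at 20 µg/mL and 1 oligodendrocyte marker at 100 µg/mL, against 0. With TMM-derived size factors 1 kinase fell at 500 µg/mL. Depth limited FOS and FOSB most, with SEs of 0.368 and 0.305 at 500 µg/mL against 0.0330 for FOSL2.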

Other observations

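Other immediate early genes, which share the fast induction of FOS and EGR1 but are not among the 10 factors, were read from a list of 28. At 500 µg/mL 14 rose and 1 fell, with a median log2 fold change of 0.81 over 27 genes, and at 100 µg/mL 8 rose and 0 fell. Over all tested genes, 8.66% rose and 9.57% fell at 500 µg/mL, and 2.34% rose and 1.48% fell at 100 µg/mL. ATF3, a stress-induced bZIP repressor, stood at 38.3 ± 2.09 normalised counts with vehicle (SD, n = 3), 46.2 ± 7.56 at 20 µg/mL, 140 ± 22.8 at 100 µg/mL and 1014 ± 45.9 at 500 µg/mL. Its log2 fold changes were 1.87 (SE 0.177, BH-adjusted p 3.01e-24 in DESeq2) at 100 µg/mL and 4.73 (SE 0.165, BH-adjusted p 8.44e-179 in DESeq2) at 500 µg/mL. SIK1, a kinase induced by cyclic AMP, rose from 249 ± 6.19 to 964 ± 19.4 at 100 µg/mL and 2881 ± 155 at 500 µg/mL (log2 fold changes 1.95 and 3.53). IER5L fell from 1380 ± 247 to 692 ± 47.0 at 500 µg/mL (log2 fold change -0.996 with an SE of 0.128, BH-adjusted p 6.47e-14 in DESeq2), and IER5L-AS1 on the opposite strand covers 41.8% of its exon bases.

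The genes that rose at 500 µg/mL also included NR4A1, ARC, KLF2, KLF4, KLF6, ZFP36 and IER3. Beside these, FOS fell and EGR1 had a log2 fold change of 0.10 (SE 0.118), which did not pass the test. All values were taken at 24 h, so a brief rise of any of these genes at earlier times was not measured.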
